A study of Rattus norvegicus with 30 samples.

Results

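The data described here come from the oesophageal epithelium of 5 zinc-deficient rats that received an oligonucleotide against miR-31 for 20 weeks and of 5 untreated zinc-deficient rats. These are 10 of the 30 expression arrays of the study, chosen by their titles, and they were compared across 14217 genes, each represented by the probe set with the highest mean over all arrays. Male Sprague-Dawley rats entered the study at 4 weeks of age, and all of the rats described here received 4 intragastric doses of 2 mg/kg N-nitrosomethylbenzylamine (NMBA), a nitrosamine that causes tumours of the rat oesophagus, once a week from week 5. The antimiR rats ate a zinc-deficient (ZD) diet ad libitum. They were given a locked nucleic acid (LNA) antimiR in saline buffer through the tail vein, with a loading dose of 20 mg/kg, 9 maintenance doses of 6 mg/kg over the first 5 weeks and 20 further doses of 6 mg/kg during and after NMBA. The untreated ZD rats ate the same diet and received NMBA and no antimiR. Rats were killed 48 h after their last antimiR dose or 15 weeks after NMBA began, per the labels, which do not tie either end point to a group.

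For levels, 5 untreated rats pair-fed a zinc-sufficient (ZS) diet are given beside them, and 5 ZD rats that stopped antimiR after the first 5 weeks served for a comparison of durations. All of these rats carried an unedited miR-31 gene. The arrays cover 5 of a cohort of 11 rats with 20 weeks of antimiR and 5 of 20 untreated ZD rats, per the labels, which do not say how these rats were picked. Since the ZD controls were untreated, the effects of injection, of an oligonucleotide as such and of miR-31 inhibition cannot be told apart here. Whole epithelial samples were pulverized, so fewer cells of a type and less RNA per cell cannot be told apart either.

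MicroRNAs guide a silencing complex to messenger RNAs that pair with their seed, the bases near the 5′ end, and lower the stability or translation of those messengers. An LNA antimiR pairs with the mature microRNA and keeps it from its targets. In squamous epithelium miR-31 is known as an oncogenic microRNA, and in the zinc-deficient rat oesophagus it is known to be raised together with an inflammatory programme. The mature strands of rat miR-31 are shown because the antimiR is directed against this microRNA. They lie on the minus strand at chr5:108714906-108714927 for the 5p strand and chr5:108714869-108714891 for the 3p strand (RefSeq, build GRCr8). Capitals mark the seed, bases 2 to 8.
rno-miR-31a-5p: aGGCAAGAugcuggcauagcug
rno-miR-31a-3p: uGCUAUGCcaacauauugccauc
Levels of miR-31 itself were not measured on these arrays, so the degree of inhibition in each rat is not known from these data.

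Values are log2 expression values after robust multi-array averaging (RMA). The array median lay between 5.37 and 5.45 on the 20 arrays of unedited rats. Pairs of arrays correlated across genes at 0.972 to 0.994 within the antimiR group, at 0.978 to 0.991 within the ZD group and at 0.969 to 0.991 between the groups. The tissue label fitted its defining markers: the keratin Krt13 stood at 14.01 to 14.09 on the antimiR arrays and 14.01 to 14.09 on the ZD arrays, near the top of the scale. The mean over 14 oesophageal epithelium markers was 11.63 to 11.88 on the antimiR arrays, against 11.69 to 11.99 on the ZD arrays. Muscle content varied between samples. The mean over 17 skeletal muscle markers ran between 6.57 and 10.16 on antimiR arrays and between 5.39 and 9.74 on ZD arrays. Over 13 smooth muscle markers the antimiR arrays stood at 7.14 to 9.37, against 7.10 to 8.10 on the ZD arrays, with all 13 changes above 0, a median of 0.75 and none past the test.

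On the genes called below, 2 arrays stood nearest the other group. For the 69 genes lower with antimiR that are described next, antimiR array 2 lay below the midpoint of the group means in 52, whereas the other antimiR arrays did so in 68 or 69. ZD array 15 lay above the midpoint in 46 of the 69, and the other ZD arrays in 64 to 69. ZD array 12 was the highest ZD array for 37 of these genes. For the 23 higher genes, antimiR array 2 lay above the midpoint in 21 and ZD array 15 below it in 10, while the other ZD arrays did so in all 23. Across all genes the order of the ZD arrays was another. ZD arrays 11 and 13 had the highest mean correlations with the antimiR arrays, 0.987 and 0.985, against 0.984 for ZD array 15. AntimiR array 2 remained the antimiR array nearest the ZD arrays, at 0.986. With the rest of their own groups antimiR array 2 and ZD array 15 correlated less, at 0.981 and 0.982.

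After 20 weeks of antimiR, expression of the inducible cyclooxygenase gene Ptgs2, the stress keratins Krt17 and Krt6c, the carbonic anhydrase gene Car2, the chemokines Cxcl1 and Cxcl2 and a group of vessel genes led by Esm1 fell relative to untreated ZD rats. Expression of the retinoic acid hydroxylase Cyp26b1, the zinc-finger transcription factor Egr2 and the neutral ceramidase Asah2 rose. Of the 14217 genes, 92 passed an adjusted p of 0.05 in limma, or 0.647% of all genes. Lower with antimiR were 69 genes (0.485%) and higher 23 (0.162%). A change of at least 2-fold was seen in 17 of the lower and 3 of the higher genes. The median change over all genes was -0.0057, and 7309 genes (51.4%) lay below 0. Under median centring of every array the split was 47 lower and 35 higher, and without the dimmest 30% of genes it was 56 lower and 32 higher.

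**Figure D1:**
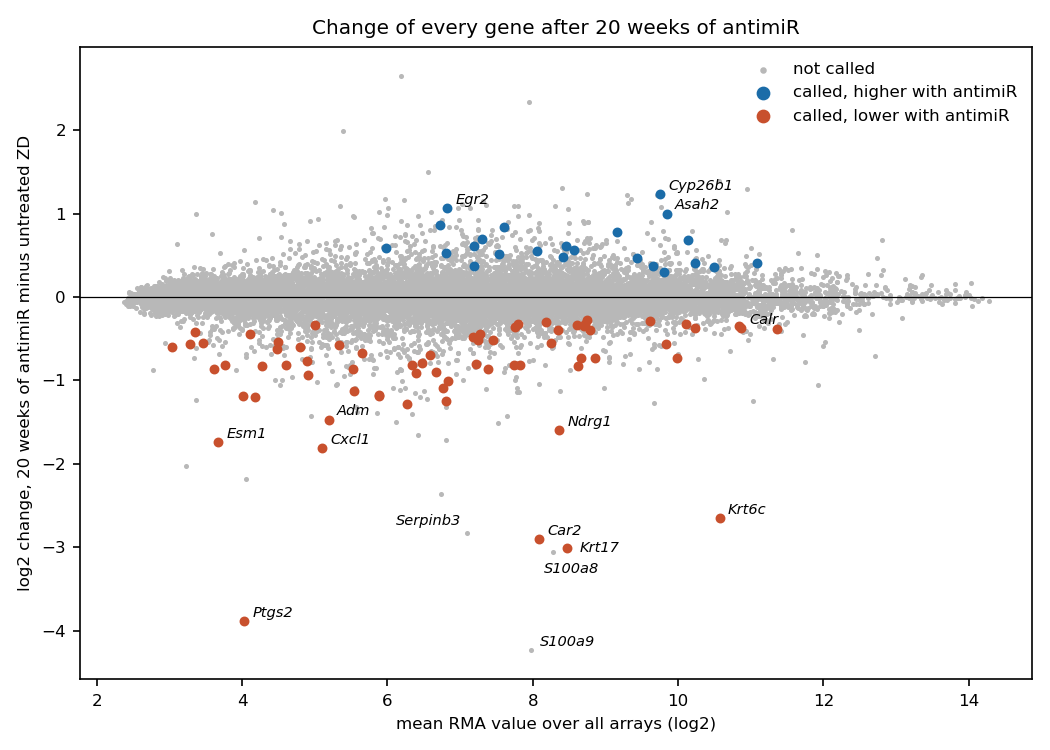
Log2 change of each of the 14217 genes, 20 weeks of antimiR minus untreated ZD (vertical axis), against its mean log2 value over all arrays (horizontal axis). Coloured points are the 92 genes that passed an adjusted p of 0.05, grey points the rest; Ptgs2 lies lowest of the called genes at -3.88, while S100a9 at -4.24 did not pass.

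Of the 92 genes, 62 had groups that did not overlap, 45 lower and 17 higher with antimiR. Groups were apart in 2.6% of all genes, where the antimiR arrays lay wholly below the ZD arrays in 1.73% and wholly above them in 0.872%. The typical called change was moderate, with a median of -0.73 for the lower and 0.56 for the higher genes. The smallest called change was that of Hbs1l, at -0.27. At an unadjusted p of 0.05, 2108 genes (14.8%) passed, 1166 of them lower (8.2%) and 942 higher (6.63%).

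**Figure D2:**
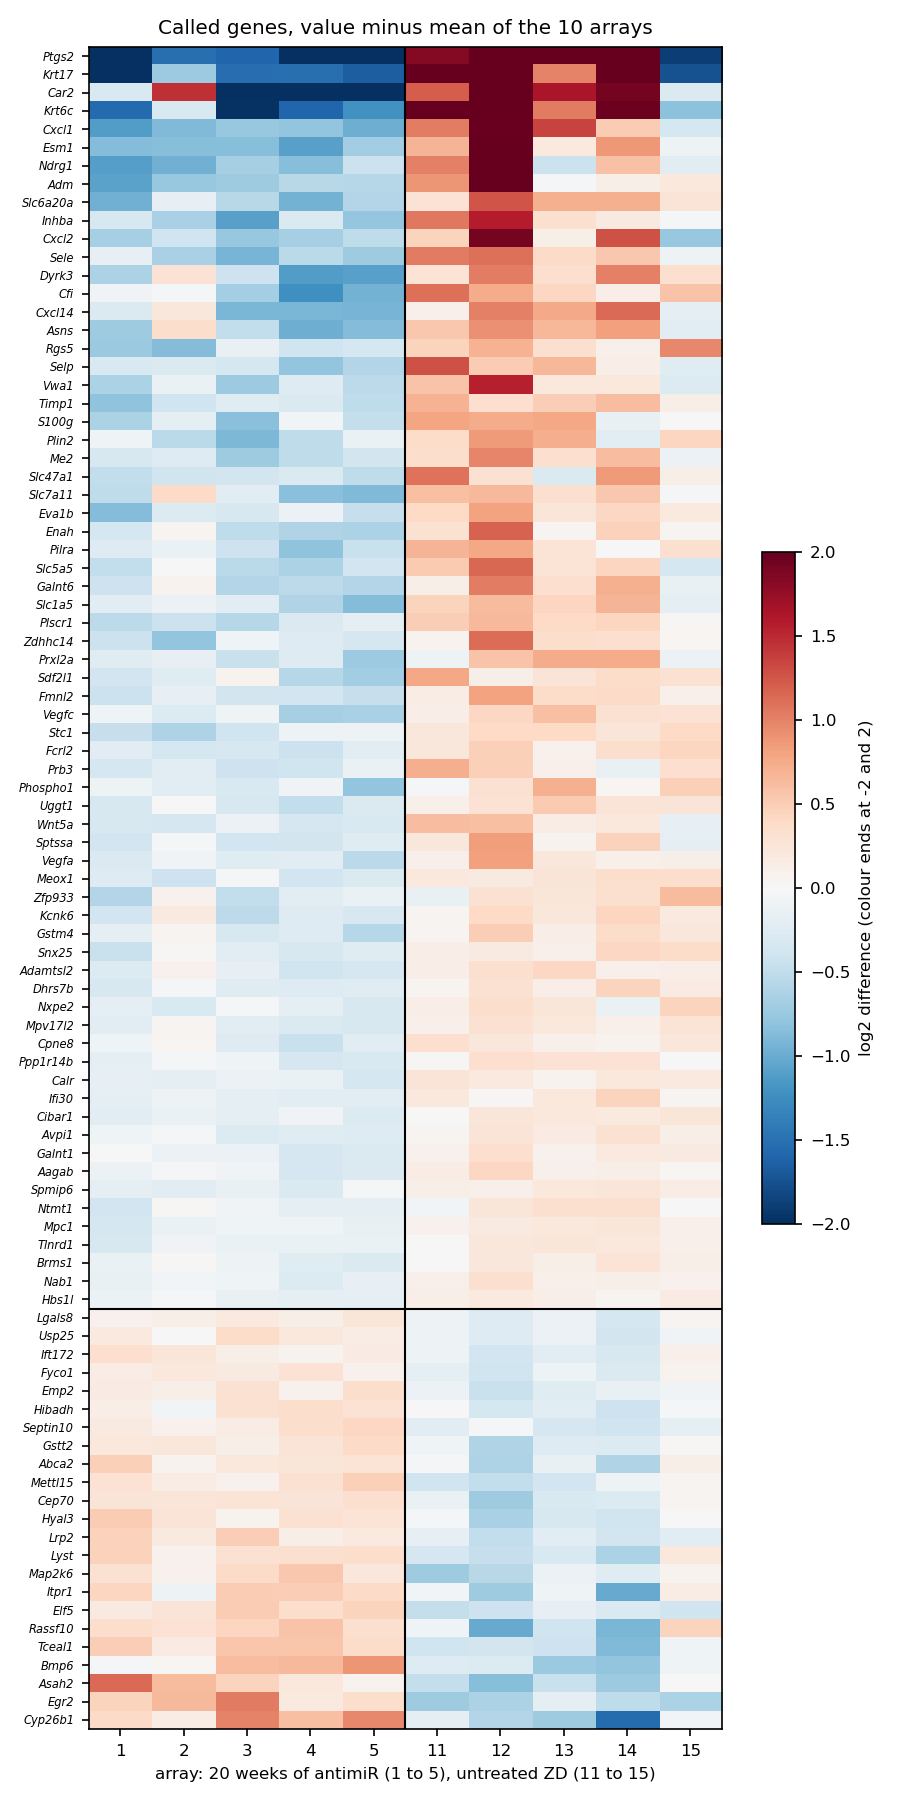
The 92 called genes (rows, ordered by change) on antimiR arrays 1 to 5 and ZD arrays 11 to 15 (columns). Colour is the log2 value minus the mean of the 10 arrays, with the colour scale ending at -2 and 2; antimiR array 2 and ZD array 15 are the palest columns of the upper block, where 52 and 46 of the 69 lower genes lay on their own group's side of the midpoint.

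Ptgs2, which makes the precursor of prostaglandin E2, stood at 2.91, 3.53, 3.44, 2.78 and 2.79 on the antimiR arrays, against 6.86, 9.14, 7.41, 8.29 and 3.15 on the ZD arrays. All antimiR arrays were low, and among the ZD arrays array 15 was as low as they were, so the groups overlapped through that rat alone. The change was -3.88 (SE 0.68, adjusted p = 0.0137), or 14.8-fold lower, and the call held whichever of the 10 arrays was dropped but not in a fit on these 10 arrays alone (adjusted p = 0.154). On the ZS arrays its mean was 3.10 ± 0.09 (SD, n = 5). Of the 12 measured genes of the prostaglandin E2 pathway Ptgs2 was the only one called. The terminal synthase Ptges averaged 7.27 ± 0.54 with antimiR and 8.13 ± 0.40 on ZD (adjusted p = 0.107), the constitutive cyclooxygenase Ptgs1 changed by -0.58 (adjusted p = 0.181), and the list's median change was -0.02.

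Of 30 NF-kB targets and feedback genes, 2 were called lower and none higher, where 0.485% of all genes were called lower and 0.162% higher. Changes lay below 0 in 24 and above 0 in 6, and the median change was -0.16. Both called members encode chemokines that attract neutrophils. Cxcl1 stood at 3.80, 4.04, 4.16, 4.12 and 3.94 with antimiR, against 5.94, 6.89, 6.27, 5.43 and 4.56 on ZD, with no overlap (change -1.81, SE 0.40, adjusted p = 0.0294). Its call depended on single rats: when arrays were dropped one at a time, it held in 2 of 10 fits, those without antimiR array 2 or ZD array 15. Cxcl2 stood at 3.80, 4.07, 3.71, 3.80 and 3.96 with antimiR, against 4.91, 6.38, 4.59, 5.74 and 3.70 on ZD, where array 15 again lay at the antimiR level (change -1.20, SE 0.29, adjusted p just under the threshold). The call of Cxcl2 held in 3 of the 10 fits with 1 array dropped. Among members that did not pass, Il1b averaged 5.35 ± 0.32 with antimiR and 6.09 ± 0.31 on ZD, and Tnf 4.74 ± 0.17 with antimiR and 4.72 ± 0.13 on ZD. The largest rise in the list, 0.89 for the chemokine gene Ccl20, did not pass either. Another chemokine gene, Cxcl14, no member of that list, fell by 1.12 on the log2 scale (adjusted p = 0.028).

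The promoters of Ptgs2, both CXC chemokines and Egr2 are shown because they encode the inducible cyclooxygenase, the neutrophil chemokines and the most stably called higher gene described here. Each line runs 5′ to 3′ from 250 bases before to 50 bases after the annotated start (RefSeq, build GRCr8). Capitals mark motif matches found on either strand: ACGTG, the core of the hypoxia response element, in Ptgs2 and Cxcl2, the NF-kB consensus in Cxcl1 and Cxcl2, and the serum response CArG box in Egr2.
Ptgs2, chr13:64713813-64714112, plus strand: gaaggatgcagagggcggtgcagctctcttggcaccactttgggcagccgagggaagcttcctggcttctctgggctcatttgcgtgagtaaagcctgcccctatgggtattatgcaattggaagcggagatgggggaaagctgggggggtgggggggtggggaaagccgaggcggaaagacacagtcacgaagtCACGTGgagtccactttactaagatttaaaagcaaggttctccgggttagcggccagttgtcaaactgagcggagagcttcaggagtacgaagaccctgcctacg
Cxcl1, chr14:17479272-17479571, minus strand: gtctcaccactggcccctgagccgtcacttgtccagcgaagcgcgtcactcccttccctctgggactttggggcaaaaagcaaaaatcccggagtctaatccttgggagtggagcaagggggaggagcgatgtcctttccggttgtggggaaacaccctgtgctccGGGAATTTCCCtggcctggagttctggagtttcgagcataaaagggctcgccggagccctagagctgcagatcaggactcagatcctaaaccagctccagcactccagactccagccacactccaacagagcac
Cxcl2, chr14:17467206-17467505, minus strand: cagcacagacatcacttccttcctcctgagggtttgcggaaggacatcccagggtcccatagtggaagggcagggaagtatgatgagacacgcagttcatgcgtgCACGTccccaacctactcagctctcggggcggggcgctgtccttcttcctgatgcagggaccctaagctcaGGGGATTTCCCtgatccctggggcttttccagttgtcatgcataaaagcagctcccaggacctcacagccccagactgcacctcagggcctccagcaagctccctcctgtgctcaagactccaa
Egr2, chr20:21054392-21054691, minus strand: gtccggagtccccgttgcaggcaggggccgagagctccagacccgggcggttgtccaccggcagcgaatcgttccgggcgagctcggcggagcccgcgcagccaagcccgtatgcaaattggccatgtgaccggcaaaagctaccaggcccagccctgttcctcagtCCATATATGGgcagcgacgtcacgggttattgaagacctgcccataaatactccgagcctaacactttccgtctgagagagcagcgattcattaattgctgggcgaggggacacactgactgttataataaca
Matches of the NF-kB consensus overlap by all but 1 base in each chemokine promoter, since the site reads nearly the same on both strands, and the ACGTG matches on the 2 strands of Ptgs2 overlap in the same way. Among promoters in the table, 55 belonged to lower and 20 to higher genes. The NF-kB consensus was found in 3 of the 55 (Cxcl1, Cxcl2 and Nab1) and in 4.93% of the 11733 promoters of measured genes. ACGTG was found in 11 of the 55 and in 24% of the measured genes' promoters, and the AP-1 motif TGANTCA in 3 of the 55 and 5.44%. Among the 20 promoters of higher genes, the NF-kB consensus was found in 1, ACGTG in 6 and the AP-1 motif in 2. The CArG box was found in 1 of those 20 (Egr2), in 2 of the 55 of lower genes (Pilra and Spmip6) and in 1.35% of the measured genes' promoters. A match is a description of these letters and not a binding site.

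Of 16 measured keratins, 2 were called, both lower, where 0.485% of all genes were called lower. These were the stress keratins Krt17 and Krt6c. Other stress keratins, Krt6a, Krt6b and Krt16, were not measured here, and whether keratin classes differ was not tested. Krt17, induced in wounded and hyperplastic epithelium, stood at 6.78, 8.18, 7.38, 7.40 and 7.26 with antimiR, against 11.02, 13.04, 9.90, 10.93 and 7.16 on ZD. Krt6c, its frequent companion in wound edges, stood at 9.73, 10.98, 9.31, 9.71 and 10.08 with antimiR, against 13.31, 13.70, 12.33, 13.25 and 10.47 on ZD. In both genes ZD array 15 was the only ZD array inside the antimiR range. Changes were -3.01 (SE 0.61, adjusted p = 0.02) for Krt17 and -2.65 (SE 0.52, adjusted p = 0.0191) for Krt6c, and with arrays dropped in turn the calls held in 5 and 6 of 10 fits. Both were lost without antimiR array 3 or 4 or ZD array 12 or 14, and that of Krt17 also without antimiR array 5. Other probe sets of Krt6c changed by -1.65 and -3.43. The median change over the 16 was -0.01, and 4 were lower at an unadjusted p of 0.05. The basal keratin Krt14 averaged 12.34 ± 0.34 with antimiR and 13.04 ± 0.60 on ZD (adjusted p = 0.0751), Krt5 12.17 ± 0.15 with antimiR and 12.57 ± 0.40 on ZD, and the suprabasal Krt4 14.19 ± 0.03 with antimiR and 14.20 ± 0.05 on ZD.

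Car2, which encodes a cytosolic carbonic anhydrase, divided the antimiR rats. It stood at 8.58, 10.33, 6.49, 5.91 and 5.84 with antimiR, against 10.09, 11.67, 10.52, 10.80 and 8.59 on ZD. Arrays 3, 4 and 5 were low, array 1 lay just under the lowest ZD array and array 2 within the ZD range, giving a change of -2.90 (SE 0.65, adjusted p = 0.0292). The call was lost without antimiR array 3, 4 or 5 or ZD array 12, 13 or 14. Car2 was the only gene called among 13 carbonic anhydrases, whose median change was 0.03. AntimiR array 2 also stood highest in some genes that did not pass, though array 1 did not stand beside it in S100a9. The alarm protein gene S100a9, a subunit of calprotectin, stood at 4.81, 9.41, 4.51, 6.19 and 6.20 with antimiR, against 12.21, 11.20, 10.71, 10.57 and 7.61 on ZD (change -4.24, SE 1.12, adjusted p = 0.0739). Its partner S100a8 changed by -3.06 (adjusted p = 0.134) and the serpin Serpinb3 by -2.83 (adjusted p = 0.0722), with antimiR array 2 the highest antimiR array in each. Of the 10 calprotectin and alarm genes measured none passed, and their median change was -0.33. Without antimiR array 2, all 3 of S100a9, S100a8 and Serpinb3 passed.

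**Figure D3:**
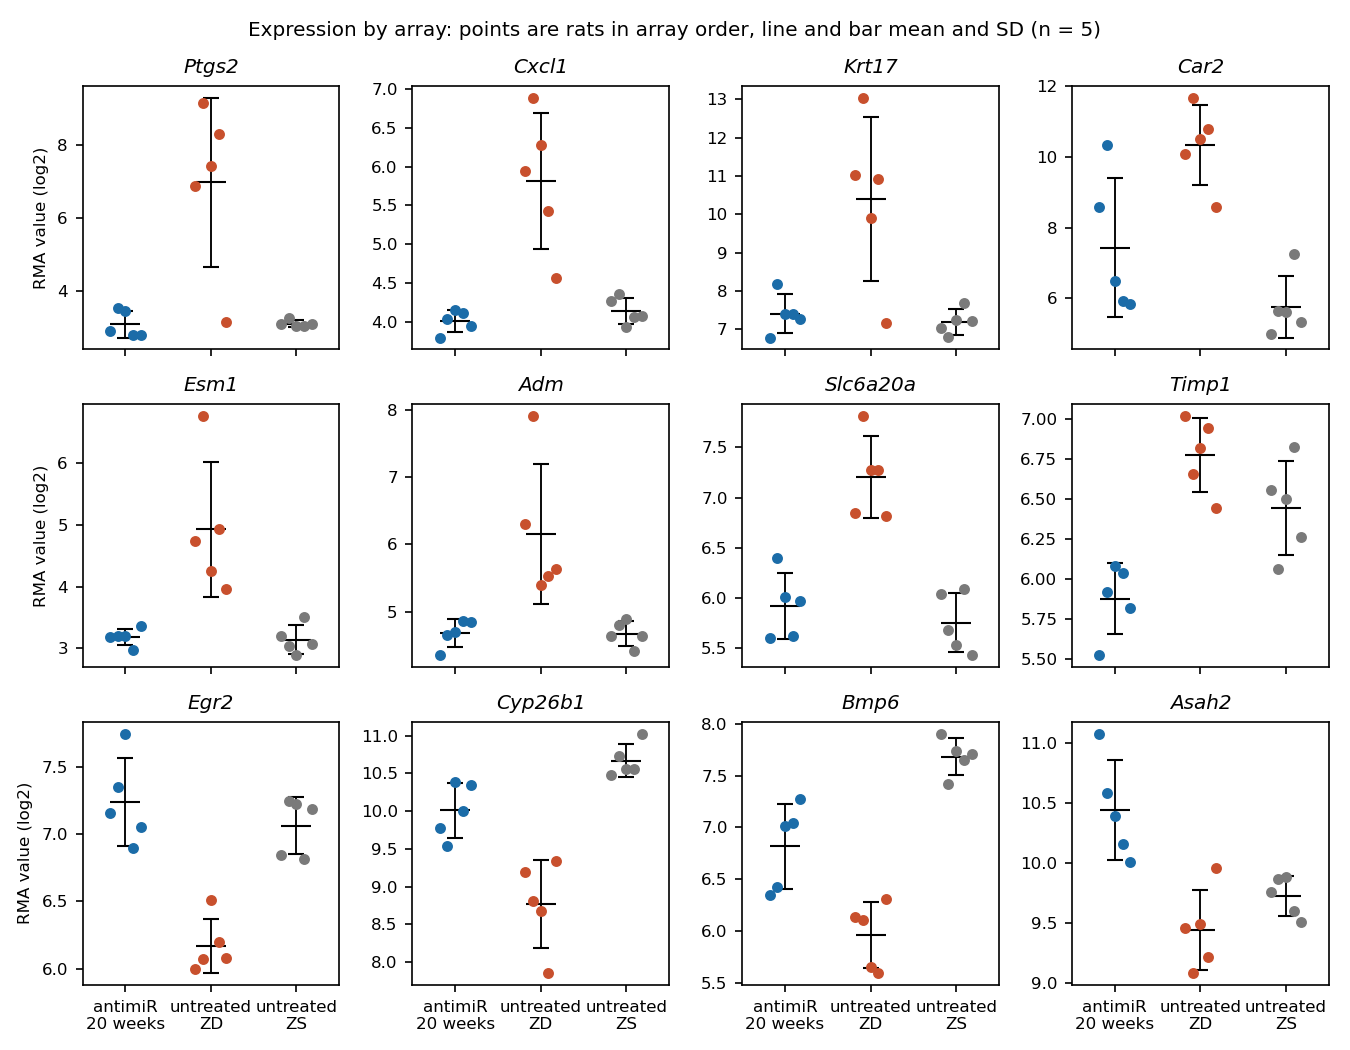
Log2 RMA values of 12 called genes on the arrays of 20 weeks of antimiR (blue), untreated ZD (orange) and untreated ZS (grey). Points are rats in array order, lines and bars the mean and SD (n = 5 each); the lowest ZD point of Ptgs2, at 3.15, is array 15, and the highest antimiR point of Car2, at 10.33, is array 2.

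Genes of vessels and of leukocyte adhesion formed the list with the most called members, 5 of 24, all lower, where 0.485% of all genes were called lower. The median change of the list was -0.27, and its members were chosen with earlier results of these data known. Esm1, an endothelial proteoglycan secreted by vessel tip cells, stood at 3.18, 3.21, 3.20, 2.98 and 3.36 with antimiR, against 4.73, 6.76, 4.24, 4.93 and 3.96 on ZD. The groups did not overlap, the change was -1.74 (SE 0.29, adjusted p = 0.00923), and its call survived the loss of any of the 10 arrays but not the fit on these arrays alone (adjusted p = 0.17). E-selectin (Sele) and P-selectin (Selp), which tether leukocytes to activated endothelium, fell by 1.19 and 0.93 on the log2 scale, each without overlap. A second probe set of Selp, dim at 2.76 with antimiR and 2.81 on ZD, changed by -0.05. Sele stood at 3.84, 3.36, 3.08, 3.47 and 3.29 with antimiR, against 5.05, 5.11, 4.38, 4.55 and 3.91 on ZD. The vasodilator peptide gene Adm fell by 1.47 (adjusted p = 0.0196), and the pericyte gene Rgs5 averaged 6.40 ± 0.29 with antimiR and 7.41 ± 0.33 on ZD (adjusted p = 0.0233). Together with Esm1 these were the called members. Of 2 vascular growth factors outside this list, Vegfc stood at 6.41, 6.23, 6.42, 5.84 and 5.86 with antimiR, against 6.64, 6.91, 7.10, 6.80 and 6.79 on ZD (change -0.70, adjusted p = 0.02), and Vegfa changed by -0.55 with an adjusted p just under the threshold. General endothelial markers did not pass. All 10 measured changed below 0, with a median of -0.30 and a summed level of 5.92 to 6.59 as the mean over the list on antimiR arrays, against 6.39 to 6.81 on ZD arrays. The part of vessel content in the lower vessel genes was not tested.

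Hypoxia and glycolysis genes lay mostly below 0, at 26 of 34, with a median change of -0.24 and 3 called, all lower: Adm, Vegfa and the stress-response gene Ndrg1. The mean over the list was 8.37 to 8.55 on the antimiR arrays. It was 9.10 on ZD array 12 and 8.51 to 8.64 on the other ZD arrays, so the groups overlapped. Adm is also counted in the vessel list, and 0.485% of all genes were called lower. Ndrg1 stood at 7.27, 7.42, 7.72, 7.53 and 7.95 with antimiR, against 9.39, 11.44, 7.95, 8.96 and 8.15 on ZD, and ZD array 12 carried the highest value of each of the 3 called genes. With arrays dropped in turn, the calls of Ndrg1 and Vegfa each held in 3 of 10 fits. An unadjusted p under 0.05 was found for 16 of the 34 on the lower side, against 8.2% of all genes. Members short of the adjusted threshold included the transcription factor subunit Hif1a (11.28 ± 0.35 with antimiR, 11.64 ± 0.26 on ZD), the glucose transporter Slc2a1 (10.05 ± 0.35 with antimiR, 10.47 ± 0.35 on ZD) and Ldha (11.58 ± 0.33 with antimiR, 12.03 ± 0.45 on ZD). Outside the list, the hormone gene Stc1 stood at 5.12, 4.96, 5.18, 5.48 and 5.48 with antimiR, against 5.80, 5.98, 5.97, 5.82 and 5.98 on ZD (change -0.67, SE 0.13, adjusted p = 0.0196). The lipid droplet coat gene Plin2 fell by 0.87 (adjusted p = 0.0191).

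Macrophage and antigen presentation markers were the list with the lowest median change, -0.60, although none of its 19 members passed over all 14217 genes. In 10 of the 19 every antimiR array lay below every ZD array, where 1.73% of all genes showed that pattern. The mean over the list was 6.60, 6.31, 6.29, 6.40 and 6.56 on the antimiR arrays, against 7.05, 6.97, 6.89, 6.78 and 6.90 on the ZD arrays. No array crossed over, antimiR array 2 and ZD array 15 included. The ZS arrays, at 6.58 to 6.85, lay between them with a slight overlap. C1qa, a chain of the complement component C1q made by tissue macrophages, stood at 6.97, 7.19, 7.12, 6.79 and 6.76 with antimiR, against 7.97, 7.98, 7.85, 8.03 and 7.79 on ZD (change -0.96, SE 0.29, adjusted p = 0.114). The lysozyme gene Lyz2 averaged 9.07 ± 0.50 with antimiR and 10.34 ± 0.14 on ZD, the mannose receptor Mrc1 5.36 ± 0.48 with antimiR and 6.58 ± 0.54 on ZD, and the colony-stimulating factor receptor Csf1r 5.35 ± 0.28 with antimiR and 6.05 ± 0.26 on ZD. Cd68 and Cd14, general macrophage markers, changed by 0.02 and -0.06.

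The standard errors of these genes drew on all 30 arrays. A fit on the 10 arrays alone called 21 genes, 17 lower and 4 higher, and 7 of the 92. Its lower genes included C1qa (adjusted p = 0.0145), C1qc (adjusted p = 0.0166) and the signalling adaptor Tyrobp of myeloid and natural killer cells (adjusted p = 0.0461). It also held C5ar1, the complement C5a receptor of myeloid cells (change -0.74, adjusted p = 0.0166), and the myeloid membrane gene Ms4a6a (change -0.70, adjusted p = 0.0263), which were named after their values were seen. In the fit over 30 arrays these last genes had adjusted p values of 0.0751 and 0.0607. Among the 92, Pilra, an inhibitory receptor of myeloid cells, fell by 0.82 on the log2 scale (adjusted p = 0.0274), and the lysosomal thiol reductase gene Ifi30, active in antigen processing, fell by 0.37 (adjusted p = 0.0387). Neutrophil and mast cell markers (0 called of 13, median -0.15) and T and B lymphocyte markers (0 of 13, median -0.11) did not pass.

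**Figure D4:**
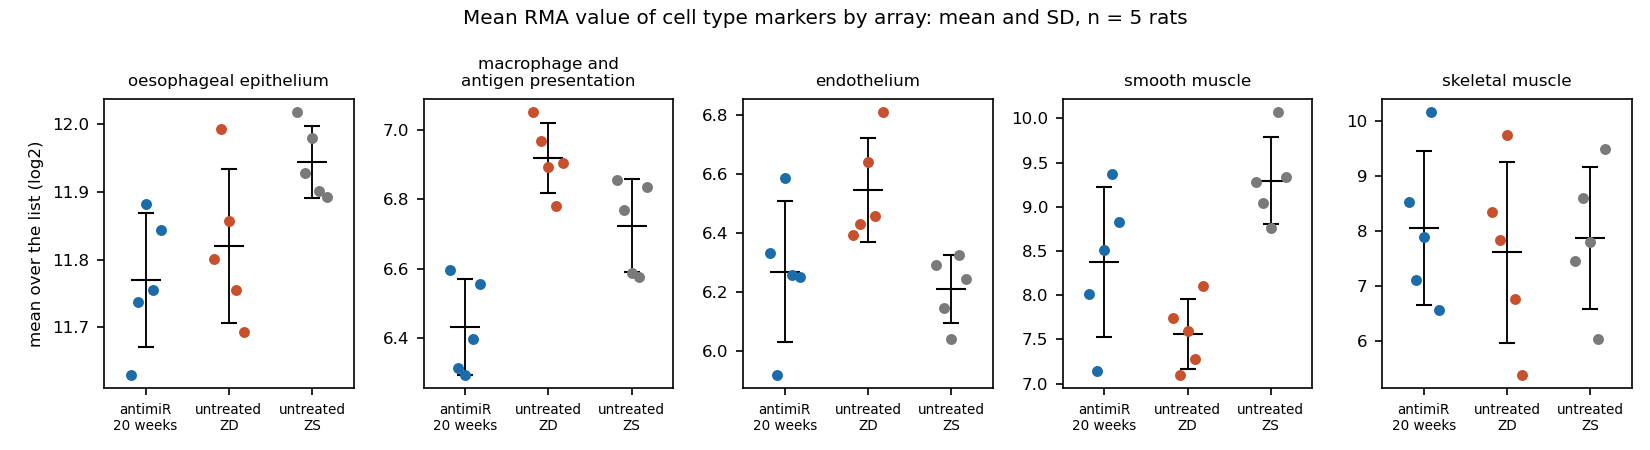
Mean log2 value over the markers of 5 cell types on each array, for 20 weeks of antimiR (blue), untreated ZD (orange) and untreated ZS (grey), with mean and SD (n = 5 rats each). Macrophage markers lay at 6.29 to 6.60 on antimiR arrays, below all ZD arrays at 6.78 to 7.05, while skeletal muscle markers spread over 6.57 to 10.16 within the antimiR group.

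Genes of amino acid supply fell in part. Of 24 genes of amino acid transport and the Atf4 response 4 were called, all lower, where 0.485% of all genes were called lower. In this list 21 lay below 0 and the median was -0.15. The proline transporter Slc6a20a stood at 5.60, 6.40, 6.02, 5.62 and 5.97 with antimiR, against 6.85, 7.82, 7.28, 7.27 and 6.82 on ZD. It shared the smallest adjusted p of all genes (change -1.28, SE 0.20, adjusted p = 0.00478), kept its call whichever array was dropped, though not on the 10 arrays alone (adjusted p = 0.0505), and its other probe set changed by -0.44. Asparagine synthetase (Asns) stood at 6.21, 7.28, 6.43, 5.96 and 6.06 with antimiR, against 7.48, 7.85, 7.60, 7.75 and 6.70 on ZD, where antimiR array 2 and ZD array 15 crossed (change -1.09, adjusted p = 0.0278). The glutamine transporter Slc1a5 fell by 0.81 (adjusted p = 0.0212) and the cystine importer Slc7a11 by 0.82 (adjusted p = 0.0412). Slc7a11 was also the only called gene among 24 genes of the Nrf2 and xenobiotic response (median -0.10). The Atf4 response genes Trib3 (7.47 ± 0.55 with antimiR, 7.82 ± 0.37 on ZD) and Ddit3 (7.22 ± 0.26 with antimiR, 7.47 ± 0.28 on ZD) did not pass. For Trib3 antimiR array 2 stood at 8.43, against 7.12 to 7.33 on the other antimiR arrays.

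Further called genes encode enzymes and proteins of the secretory pathway, picked from the 92 for their known roles and not as a tested group. Mitochondrial malic enzyme Me2 stood at 5.31, 5.38, 4.92, 5.13 and 5.27 with antimiR, against 5.98, 6.61, 5.97, 6.24 and 5.51 on ZD (change -0.86, adjusted p = 0.0191). The pyruvate carrier subunit Mpc1 fell by 0.32 (adjusted p = 0.0286). In the endoplasmic reticulum, the chaperone calreticulin (Calr) stood at 10.67, 10.65, 10.72, 10.70 and 10.48 with antimiR, against 11.08, 11.02, 10.90, 11.04 and 11.02 on ZD, a change of -0.37 (SE 0.08, adjusted p = 0.0278) with little spread. On the ZS arrays Calr averaged 10.97 ± 0.08. The glycoprotein folding sensor Uggt1 fell by 0.57 (adjusted p = 0.0191) and the chaperone cofactor Sdf2l1 by 0.73 (adjusted p = 0.0233). Galnt6 and Galnt1, which start mucin-type O-glycan chains, fell by 0.81 and 0.35. The actin regulators Enah and Fmnl2 fell by 0.82 and 0.73, Fmnl2 without overlap. For Enah the highest antimiR array and the lowest ZD array both rounded to 8.04. Its other probe sets changed by 0.18, at a dim level, and by -0.61. Dhrs7b, a short-chain dehydrogenase family member, stood at 6.92, 7.20, 6.99, 6.98 and 6.99 with antimiR, against 7.28, 7.55, 7.37, 7.67 and 7.40 on ZD (change -0.44, SE 0.08, adjusted p = 0.0137) and stayed called whichever array was dropped, though not on the 10 arrays alone (adjusted p = 0.104).

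Lower genes of further roles, again picked from the 92, included Dyrk3, a kinase that dissolves stress granules. It stood at 5.77, 6.69, 5.99, 5.28 and 5.33 with antimiR, against 6.68, 7.43, 6.74, 7.41 and 6.72 on ZD, where only antimiR array 2 crossed into the ZD range (change -1.18, SE 0.23, adjusted p = 0.0191). Membrane transporters and channels fell, namely the organic cation exporter Slc47a1 by 0.82, the iodide carrier Slc5a5 by 0.82 and the potassium channel Kcnk6 by 0.52. The scramblase Plscr1 averaged 6.08 ± 0.17 with antimiR and 6.87 ± 0.23 on ZD, without overlap (change -0.80, adjusted p = 0.0237). The calcium-binding protein gene S100g fell by 0.87, the glutathione transferase Gstm4 by 0.51 and Sptssa, a subunit of the enzyme that starts sphingolipid synthesis, by 0.56. The dim homeobox gene Meox1 averaged 3.07 ± 0.16 with antimiR and 3.61 ± 0.08 on ZD (adjusted p = 0.0191) and lost its call without antimiR array 4 alone.

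Protease inhibitors and complement were represented by Timp1 and Cfi, 2 called of 24 proteases and their inhibitors (median -0.31). Both were lower, where 0.485% of all genes were called lower. Timp1, which blocks matrix metalloproteinases, stood at 5.53, 5.92, 6.08, 6.04 and 5.82 with antimiR, against 7.02, 6.66, 6.82, 6.94 and 6.44 on ZD (change -0.90, SE 0.20, adjusted p = 0.0279). Complement factor I (Cfi) fell by 1.18 (adjusted p = 0.0274). The collagenase gene Mmp13 stood at 2.80 to 3.12 on the antimiR arrays, against 7.15 and 8.26 on ZD arrays 11 and 12 and 2.93 to 3.42 on the other ZD arrays (adjusted p = 0.114). The gelatinase gene Mmp9 reached at most 3.25 on the antimiR arrays, against 5.84 and 6.65 on the same 2 ZD arrays and 3.07 to 3.19 on the other ZD arrays (adjusted p = 0.169).

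Growth factors of the TGF-beta family moved in both directions, with 1 gene higher and 1 lower called of 27 (median -0.12). Over all genes the called shares were 0.162% higher and 0.485% lower. Inhba, the activin A subunit, stood at 6.40, 6.07, 5.65, 6.43 and 5.95 with antimiR, against 7.79, 8.30, 7.05, 6.91 and 6.71 on ZD (change -1.25, SE 0.28, adjusted p = 0.0286). A second probe set of Inhba changed by -0.46. Bmp6, a bone morphogenetic protein, stood at 6.35, 6.42, 7.01, 7.04 and 7.28 with antimiR, against 6.14, 6.11, 5.65, 5.59 and 6.31 on ZD (change 0.86, SE 0.18, adjusted p = 0.0212). Its 3 dimmer probe sets changed by 0.13, -0.02 and 0.12. The mean of Bmp6 on ZS arrays was 7.68 ± 0.18. The ligand gene Wnt5a, dim throughout, stood at 2.96, 2.94, 3.16, 2.95 and 2.98 with antimiR, against 3.90, 3.89, 3.43, 3.49 and 3.12 on ZD (change -0.57, adjusted p = 0.0385).

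Egr2, an early growth response transcription factor, stood at 7.15, 7.35, 7.75, 6.89 and 7.05 with antimiR, against 6.00, 6.07, 6.51, 6.20 and 6.08 on ZD. The groups did not overlap, and the change was 1.07 (SE 0.16, adjusted p = 0.00478). Of the 92 genes it was the only one that passed in all 22 alternative fits. A second probe set, dim at 3.93 with antimiR and 3.95 on ZD, changed by -0.02. In the MAPK, AP-1 and Egr list 2 genes were called higher and 1 lower of 29, with a median of -0.11. Of all genes 0.162% were called higher and 0.485% lower. The p38 activator Map2k6 rose by 0.62 (adjusted p = 0.0278), and Nab1, a corepressor that binds Egr proteins, fell by 0.29 (adjusted p = 0.0274). Egr1 averaged 10.42 ± 0.63 with antimiR and 10.45 ± 0.72 on ZD, and the AP-1 gene Fosl1 averaged 5.92 ± 0.84 with antimiR and 7.42 ± 1.27 on ZD (adjusted p = 0.134).

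Cyp26b1, which degrades retinoic acid, had the largest called increase. It stood at 9.78, 9.54, 10.39, 10.00 and 10.35 with antimiR, against 9.19, 8.81, 8.67, 7.86 and 9.34 on ZD, without overlap (change 1.24, SE 0.25, adjusted p = 0.0196, 2.36-fold), and its second probe set changed by 0.96. The ZS mean was 10.67 ± 0.22. It was the only gene called of 23 in retinoid metabolism (median 0.07). The aldehyde oxidase gene Aox4 of that list, chosen after its values were seen, stood at 5.25, 5.60, 9.16, 9.92 and 9.98 with antimiR, against 6.27, 5.16, 6.07, 5.07 and 5.64 on ZD. AntimiR arrays 3, 4 and 5 were high and arrays 1 and 2 lay within the ZD range, the division seen in Car2, and the change of 2.34 did not pass (adjusted p = 0.119). Asah2, which cleaves ceramide, stood at 11.08, 10.58, 10.39, 10.16 and 10.01 with antimiR, against 9.46, 9.09, 9.50, 9.22 and 9.96 on ZD (change 1.00, adjusted p = 0.0286), with 0.93 in its second probe set. The epithelial ETS factor Elf5, the only called one of 14 oesophageal epithelium markers, averaged 7.51 ± 0.13 with antimiR and 6.81 ± 0.12 on ZD, without overlap (change 0.70, adjusted p = 0.028).

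The other higher genes changed by 0.30 to 0.85 and are grouped here only by what they are known to do. Membrane and endocytic genes included the receptor Lrp2 (megalin, 0.59), the lysosomal trafficking regulator Lyst (0.61), the autophagosome transport adaptor Fyco1 (0.37) and the lectin Lgals8 (0.30). The calcium release channel Itpr1 changed by 0.69 and the lipid transporter Abca2 by 0.51. Cep70, a centrosome protein, stood at 8.39, 8.37, 8.40, 8.39 and 8.44 with antimiR, against 7.99, 7.42, 7.81, 7.85 and 8.19 on ZD, so the antimiR rats were nearly equal and the ZD rats spread (change 0.55, adjusted p = 0.0278). The hyaluronidase family gene Hyal3 rose by 0.56, the epithelial membrane protein gene Emp2 by 0.40 and Ift172, a component of transport in cilia, by 0.37. Rassf10, a Ras-association family member, stood at 9.25 to 9.53 with antimiR, against 7.95 to 9.40 on ZD, and ZD array 15 alone reached the antimiR range (change 0.78, adjusted p = 0.0494). The valine-degrading enzyme Hibadh rose by 0.41 and the glutathione transferase Gstt2 by 0.48.

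The published miR-31 targets did not shift as a group. Of 33 measured, with a median of 0.02 and 20 above 0, the only called gene was Sele, and it was lower with antimiR. The Hippo kinase Lats2 had the smallest adjusted p among the others and lay just past the threshold. It stood at 9.75, 9.43, 9.70, 9.91 and 9.31 with antimiR, against 9.18, 9.05, 9.22, 9.09 and 9.35 on ZD (change 0.44, SE 0.11, adjusted p = 0.0506). Egln3, an oxygen-sensing prolyl hydroxylase, averaged 9.03 ± 0.30 with antimiR and 8.40 ± 0.57 on ZD (adjusted p = 0.18). Stk40, a negative regulator of NF-kB, lay between 6.84 and 7.16 with antimiR and between 6.95 and 7.13 on ZD (change -0.05, SE 0.08, adjusted p = 0.841). A microRNA can also lower translation without lowering its target's messenger, which arrays do not measure.

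**Figure D5:**
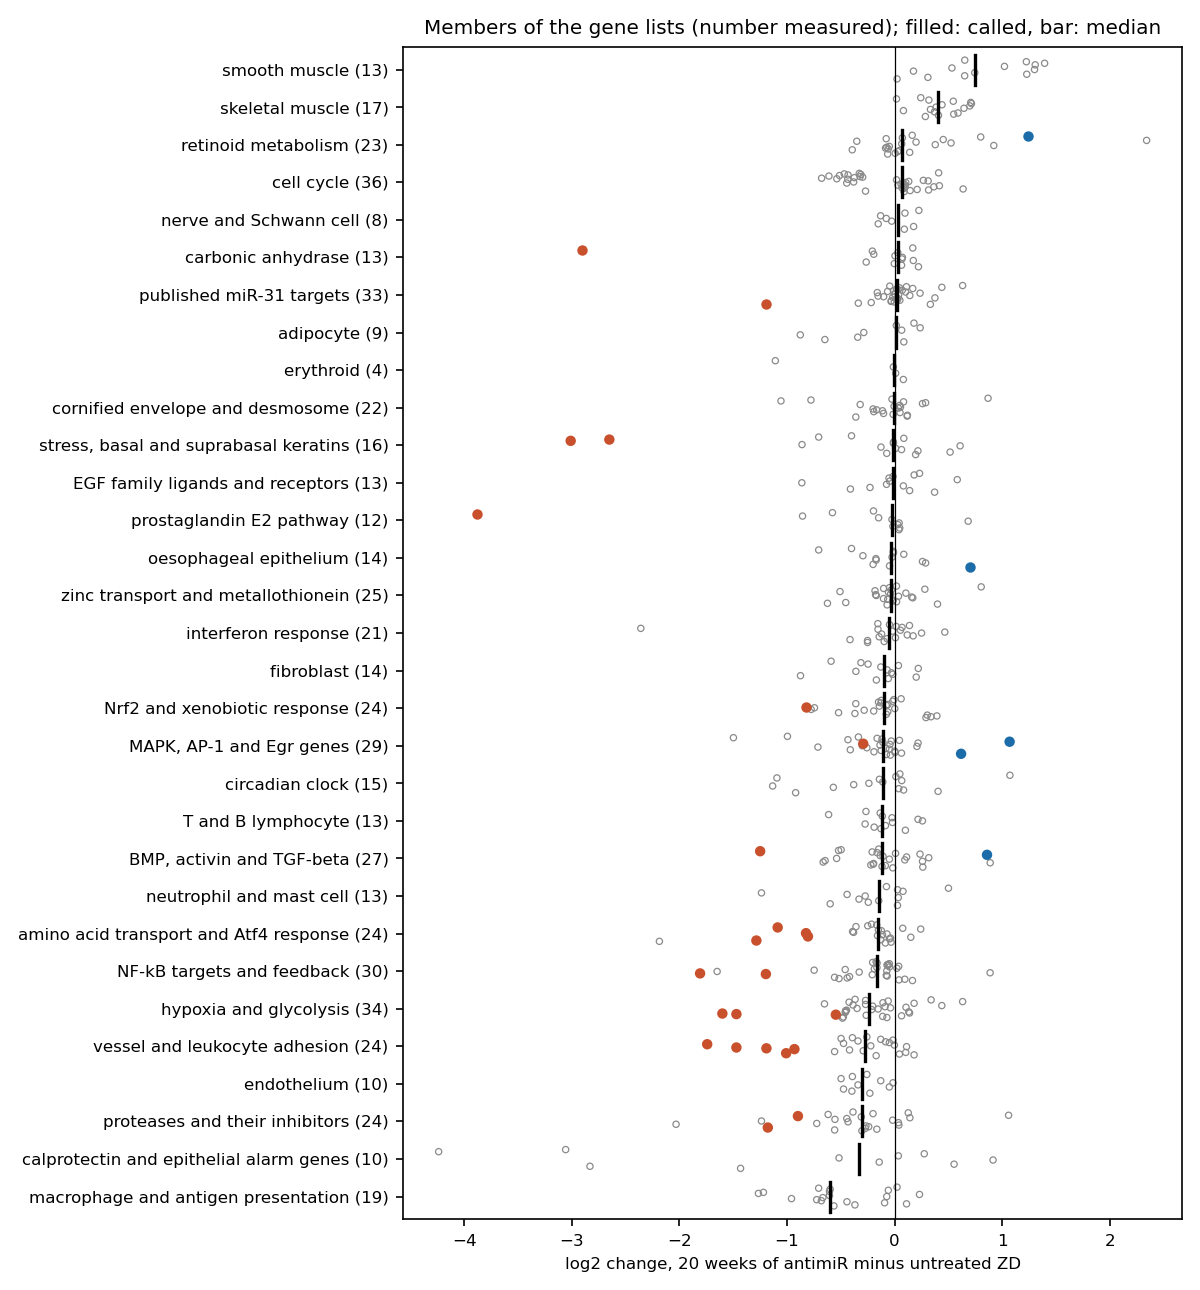
Log2 change, 20 weeks of antimiR minus untreated ZD, of each measured member of the 31 gene lists (number measured in brackets). Filled points passed an adjusted p of 0.05, open points did not, and black bars are list medians, which ran from -0.60 for macrophage and antigen presentation to 0.75 for smooth muscle.

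Several programmes had no called gene. Among 36 cell cycle genes the median change was 0.06. The proliferation marker Mki67 averaged 9.11 ± 0.41 with antimiR and 8.70 ± 0.94 on ZD (adjusted p = 0.703), and cyclin D1 (Ccnd1) 8.65 ± 0.31 with antimiR and 9.33 ± 0.29 on ZD (adjusted p = 0.0567), with its other probe sets at -0.76 and -0.77. Of 22 cornified envelope and desmosome genes none passed (median -0.01), the small proline-rich gene Sprr2d changing by -1.06 (adjusted p = 0.283). Zinc transport and metallothionein genes (25, median -0.04) included the importer Slc39a4 at 5.25 ± 0.22 with antimiR and 5.35 ± 0.14 on ZD. The metallothionein Mt1 averaged 4.81 ± 0.30 with antimiR and 5.26 ± 0.44 on ZD (adjusted p = 0.196). EGF family genes (13, median -0.01), interferon response genes (21, median -0.05) and circadian clock genes (15, median -0.11) held no called gene, nor did the markers of fibroblasts (14, median -0.10), skeletal muscle (17, median 0.41), adipocytes (9, median 0.02), erythroid cells (4, median -0.00091) and nerve (8, median 0.03). The haemoglobin gene Hbb averaged 7.10 ± 0.21 with antimiR and 8.21 ± 0.75 on ZD (adjusted p = 0.0873).

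Continuing antimiR for 20 weeks was also compared directly with stopping after 5 weeks (n = 5 each). In this comparison 3 genes passed, 0.0211% of those tested, and 868 at an unadjusted p of 0.05. The cytokine gene Il18 averaged 8.66 ± 0.45 after 20 weeks and 7.46 ± 0.17 after 5 weeks (change 1.20, SE 0.19, adjusted p = 0.00869), with 8.10 ± 0.31 in untreated ZD rats. Ppp1r10, a regulatory subunit of protein phosphatase 1, averaged 7.11 ± 0.22 after 20 weeks and 7.89 ± 0.22 after 5 weeks (change -0.78), and Csrnp1, a nuclear protein induced by axin, 6.76 ± 0.17 after 20 weeks and 7.29 ± 0.16 after 5 weeks (change -0.53, adjusted p = 0.0461). None of the 92 genes passed between the durations, so a difference in effect between 20 and 5 weeks was not shown for any of them. Ptgs2 averaged 3.09 ± 0.37 after 20 weeks and 4.39 ± 1.38 after 5 weeks, and Krt17 7.40 ± 0.50 after 20 weeks and 8.96 ± 0.55 after 5 weeks. Both groups are entered here at 15 weeks after the first NMBA dose, on the reading that this end point held for all rats.

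The count of called genes depended on single rats. Without antimiR array 2 it was 379 and without ZD array 15 it was 258, the arrays nearest the other group on the called genes. It was 12, 9 and 20 without antimiR array 3, 4 or 5, 52 without antimiR array 1, 9 and 27 without ZD array 12 or 14, and 69 and 98 without ZD array 13 or 11. Of the 92 genes, 5 passed in all 10 of these fits: Ptgs2, Esm1, Slc6a20a, Dhrs7b and Egr2. Every other called gene, whatever its adjusted p over all arrays, fell short in at least 1 of them. No called gene changed sign in any fit. When the fit was adjusted for smooth muscle markers, 30 genes were called, 16 of them among the 92. They included Ptgs2 (-3.12), Esm1 (-1.67), Slc6a20a (-1.15), Timp1 (-1.10) and Egr2 (1.24), but not Krt17, Krt6c, Car2, Cxcl1, Sele or Cyp26b1. Smooth muscle level itself lay higher on 3 antimiR arrays than on any ZD array, so this fit can also remove a difference between the groups.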

How the data were processed

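Total RNA of oesophageal epithelium, 1 array per rat, was measured on Affymetrix rat arrays. The deposited values are log2 intensities made by the authors with Affymetrix Expression Console and RMA, per the submitters' processing notes, and their versions are not given in the sources used here. In all, 31099 probe sets on 30 arrays were deposited. Of these, 20826 carried 1 gene symbol in the platform annotation, 436 several, 9780 none and 57 were controls. Genes were represented by their brightest probe set on average, giving 14217 genes, 4525 of them with more than 1 probe set.

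A group-means model over all 30 arrays was fitted with limma 3.58.1 in R 4.3.3, with moderated variances and Benjamini-Hochberg adjustment over all genes at 0.05. The 10 arrays of the knockout experiment had medians of 5.81 to 5.93, above those of the other 20 at 5.37 to 5.45, and entered only the shared variance. The rule for named genes took the 25 largest decreases and 20 largest increases among called genes whose groups did not overlap, every called member of 31 gene lists, up to 3 other members of each list by smallest adjusted p, and a few genes picked by hand, 125 in all. From these the text names those with a known role, and other genes were chosen after their values were seen. Alternatives covered the arrays fitted, array weights, normalization, dim genes, the choice of probe set, muscle covariates and each array left out. The members and lists were chosen with earlier results of these data known. In simulated data of the same size, 91 of 100 genes changed by 1 on the log2 scale and 64 of 100 changed by 0.5 were recovered, with 7 false calls. The simulation used independent noise with the same spread of a gene in every group. In the data the spread differed between groups, as for Esm1 (SD 0.14 with antimiR, 1.10 on ZD). These rates therefore cannot be carried over to the data. The number of arrays limits the precision. The labels do not say whether rats shared cages or litters, and each rat was treated as independent. The p-values rest on a spread pooled over all 30 arrays and not on the spread between the compared rats alone. Promoter and microRNA sequences came from RefSeq.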

Additional observations from a re-analysis of the deposited data

Results flagged for a closer look

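Among 222 groups of 5 arrays (111 genes examined, each in the antimiR and the ZD group), 14 held 1 array set apart from the other 4 by a gap of more than 0.71 of the group's range. Chance gives about 1 in 20 groups. AntimiR array 2 stood apart in 5 of them: it was highest for Dhrs7b (7.20), Galnt6 (7.84), Ppp1r10 (7.49) and Trib3 (8.43) and lowest for Itpr1 (9.74). AntimiR array 1 was lowest for Krt14 (11.7) and Mpc1 (9.70), and antimiR array 5 was lowest for Calr (10.48) and highest for Mt1 (5.35). AntimiR array 3 was highest for Wnt5a (3.16). ZD array 12 was highest for Nab1 (10.05) and Vegfa (9.16), ZD array 13 for Egr1 (11.7), and ZD array 15 for Csf1r (6.52).

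Between 20 and 5 weeks of antimiR, both in zinc-deficient rats, 3 genes differed in a direct limma test: Il18 (1.20), Ppp1r10 (-0.78) and Csrnp1 (-0.53).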

How the results depend on the processing

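No paired analysis was possible because each array number belongs to 1 rat and no number is shared between the groups. Against the 92 calls reported, 23 higher and 69 lower, array weights gave 557 (235 higher, 322 lower), the 10 arrays alone 21 (4 higher, 17 lower) and the smooth muscle covariate 30 (10 higher, 20 lower), and the cause was not tested. The count lay between 67 and 95 in the other fits of this kind, where genes higher were 35 with median centring and 11 with the mean of all probe sets. When 1 array was left out it lay between 9 and 379, with 2 to 155 higher and 6 to 224 lower. For 20 against 5 weeks, the 3 calls became 22 with array weights, 7 with median centring, 7 without the dimmest genes and 2 with either muscle covariate, with quantile normalization or over all probe sets, and 0 to 20 when 1 array was left out. No called gene changed sign. Of the 75 uncalled named genes 5 lay on either side of 0 across fits, Krt13 among them (-0.023 to 0.018). So did 15 of the 31 list medians, including cell cycle (-0.30 to 0.32), skeletal muscle (-0.20 to 0.95), fibroblast (-0.53 to 0.12) and miR-31 targets (-0.0096 to 0.049). Of those 75 genes 27 passed in some fit.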

Other observations

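The fit on the 10 arrays alone also called genes that no section above describes, named after their values were seen. Among its lower genes Plac8 averaged 6.37 ± 0.24 with antimiR and 7.36 ± 0.16 on ZD (change -0.99, adjusted p = 0.02), and Il2rg, the shared gamma chain of several interleukin receptors, 4.95 ± 0.20 with antimiR and 5.69 ± 0.07 on ZD (change -0.74, adjusted p = 0.0263). In the fit over 30 arrays their adjusted p values were 0.175 and 0.23 (limma).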
